A study of Zea mays with 38 samples.

Results

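The 100 features described here had less signal in UV-B leaves than in control leaves of maize at 2 and 8 h and more at 12 h. They were chosen from 13339 features that the platform's gene table does not list and that all 19 slides measured. The uncorrected intensities gave log2(UV/control) for each slide, centred on the slide median, and slides with UV on Cy5 and slides with UV on Cy3 counted equally at each time. Each feature was ranked by the smallest of its 12 h value, its 2 h value with the sign turned and its 8 h value with the sign turned. The first 100 were taken. A feature here is a spotted cDNA named by its sequence record. Of the 100, 99 were expressed sequence tags and 1 was a specially named spot, written PB: Full in the files. A RefSeq gene table annotated 0 of them, so they are given by identifier and no role is stated.

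Leaves of seedlings of the inbred B73 were compared in pairs: every slide was hybridised with a UV sample and its control of the same hour, 1 in each dye (Cy5 and Cy3). The UV groups received UV-B for 1, 2, 4, 8 or 12 h, and each had a control group of the same time that was given no UV, which makes 10 groups and 38 samples. Each time had 4 slides, lettered a to d, except 2 h, where slides a, c and d were used and slide b was not analysed here. UV was on Cy5 on slides a and b and on Cy3 on slides c and d. Separate plants or extracts for the replicate slides are not stated, so p-values measure a spread that could be technical. The labels give neither the age of the seedlings nor the UV-B dose. Of 21 features of leaf genes, among them Cab-m7 and rbcS, 18 were brighter than every foreign-sequence spot. So were 8 of 11 features of genes known from other organs and 73.0% of the features that could have been chosen. These counts thus do not tell leaf from other tissues.

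UV-B reaches leaf cells through the epidermis, damages DNA and proteins, and is sensed by a dedicated photoreceptor. Leaves are known to answer with pigments that absorb UV, with repair and with defence transcripts, while many transcripts for photosynthesis fall. Transcripts also follow the time of day, which is why a control of the same hour is needed. On a cDNA slide, both dyes bind some material that is not the matching transcript, and a weak spot reports a mixture of the transcript and that unspecific signal.

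The values that chose the features had medians of -0.82 at 2 h, -1.15 at 8 h and 0.56 at 12 h over the 100, on the log2 scale, and they are a description. The 2 times that the choice did not use went different ways. At 4 h the median was -0.74 and 99 of 100 lay below 0. At 1 h the median was 0.35 and 95 of 100 lay above 0. The features were thus not lower in UV leaves at every early time, and 4 of 100 lay below 0 at both 1 h and 4 h.

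Dim and bright spots made up the set, and they need separate accounts. Signal was measured as the mean log2 intensity of both dyes over all slides. The slides carry 7 foreign sequences that B73 maize does not have, such as green fluorescent protein (GFP), luciferase (LUC), a beta-glucuronidase (GUS) and the hygromycin resistance gene (HPH), and their signal ran from 16.45 (LUC) to 17.33 (HPH). Of the 100 features, 83 were no brighter than the HPH spot and 51 were dimmer than the LUC spot. The other 17 were brighter, from 17.78 (AI649899) to 21.21 (AW787457). Over all features that could have been chosen, 73.0% were brighter than the HPH spot, and the median signal was 18.31, against 16.44 for the 100.

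The first ranks were mostly dim. AW308682 (rank 1, signal 16.53) had -0.12, -1.003, -0.46, -1.30 and 0.80 at 1, 2, 4, 8 and 12 h by the values of the choice. Its slides at 12 h had 1.95, 0.92, 0.22 and 0.10 (a to d), and those at 8 h had -2.67, -1.71, -0.28 and -0.55. All 4 slides were on the same side of 0 at each of these times, but the slides with UV on Cy5 stood much farther from 0 than those with UV on Cy3. AW091067 (rank 2, signal 16.89) had the lowest values of all 100 at 1 h and at 4 h, -0.20 and -1.21. AI947595 (rank 3) was the only bright spot among the first 10, with a signal of 18.82 and values of 0.16, -0.92, -0.23, -1.03 and 0.78. The other 7 of the first 10, AI491271, AW399906, AI619242, AW331676, BQ528724, AI979689 and AI600881, had signals between 16.15 (AW331676) and 16.71 (AW399906). These 7 lay above 0 at 1 h and below 0 at 4 h. The ranks had no gap at the limit: the last features taken, AW129881 and AW256126, scored 0.496 and 0.495, and the next, AI649910 and AI491246, scored 0.494 each.

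The 83 dim features shared their time course with dim spots in general. Their medians were 0.35, -0.86, -0.83, -1.22 and 0.55 at 1, 2, 4, 8 and 12 h. The 7 foreign spots, which hold no maize transcript, had medians of 0.38, -0.95, -0.88, -1.13 and 0.12. The 3513 other features no brighter than the HPH spot had 0.32, -0.66, -0.56, -0.83 and 0.14. At 1 h the 3 sets lay close together, and at 2, 4 and 8 h each was well below 0. The dim features chosen stood above the other 2 sets at 12 h, which is the value they were ranked on. The foreign spots were above 0 at 1 h in 7 of 7 and below 0 at 4 h in 7 of 7. At 12 h 6 of them were above 0 and GFP was below.

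**Figure D1:**
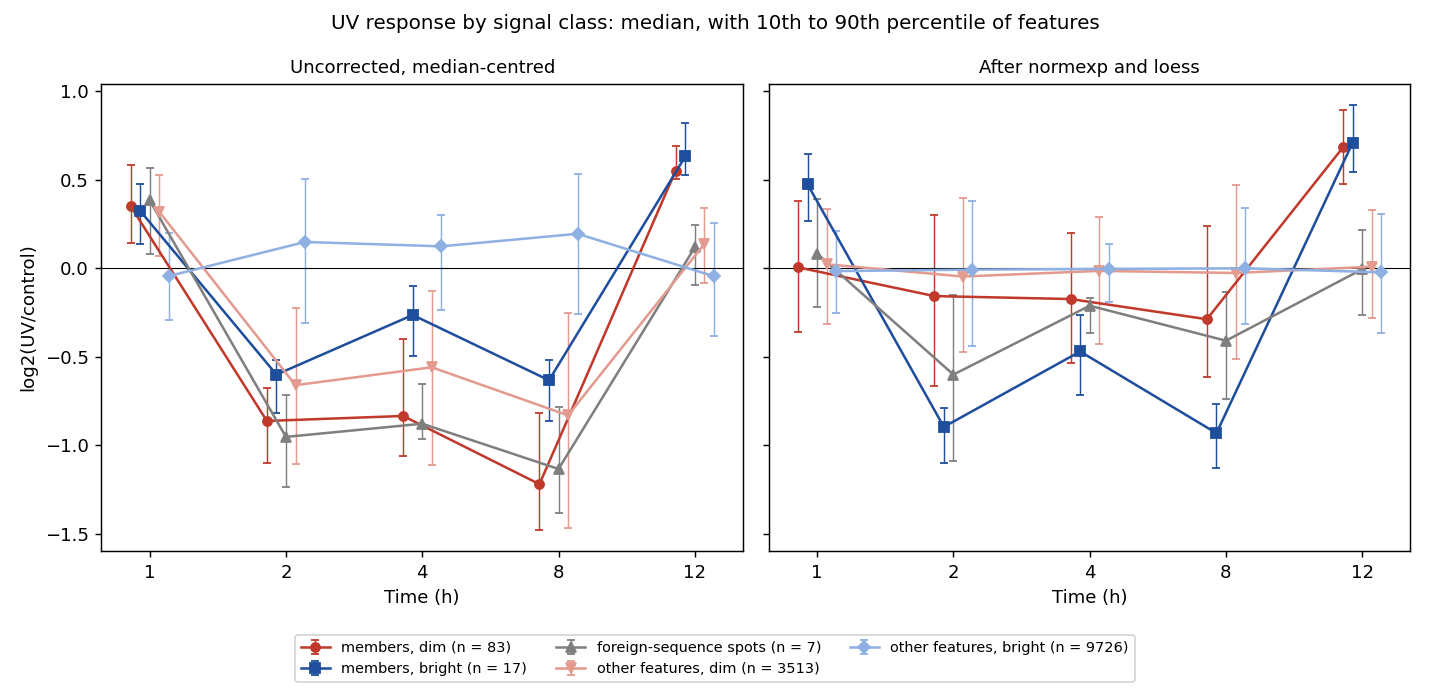
Median log2(UV/control) at 1, 2, 4, 8 and 12 h of the dim and bright members, the foreign-sequence spots and the other features of each signal class, with bars from the 10th to the 90th percentile of features; uncorrected, median-centred values on the left, values after normexp and loess on the right. On the left the dim members follow the foreign spots and other dim features except at 12 h. On the right the bright members keep their course, with a median of -0.93 at 8 h, and the dim members keep mainly the value at 12 h. The slides of 2, 8 and 12 h served for the choice.

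The response of a feature moved with its signal over the whole slide. When the 13339 features were split by signal into 10 classes of equal size, the dimmest class had medians of 0.41, -0.97, -0.90, -1.22 and 0.21 at 1, 2, 4, 8 and 12 h. The brightest class had -0.22, 0.32, 0.26, 0.34 and -0.17. Dim and bright features thus had opposite signs at all 5 times. The dimmest class held 52 of the 100 features and the next one 27. In the dimmest class 93.9% of features had the full pattern of the choice (below 0 at 2 and 8 h, above 0 at 12 h), against 4.57% in the brightest class and 28.1% of all. Across features, the Spearman correlation of signal with the response was -0.74 at 1 h, 0.78 at 2 h, 0.83 at 4 h, 0.81 at 8 h and -0.40 at 12 h. These are descriptions across features that share slides and unspecific signal, not independent replicates.

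**Figure D2:**
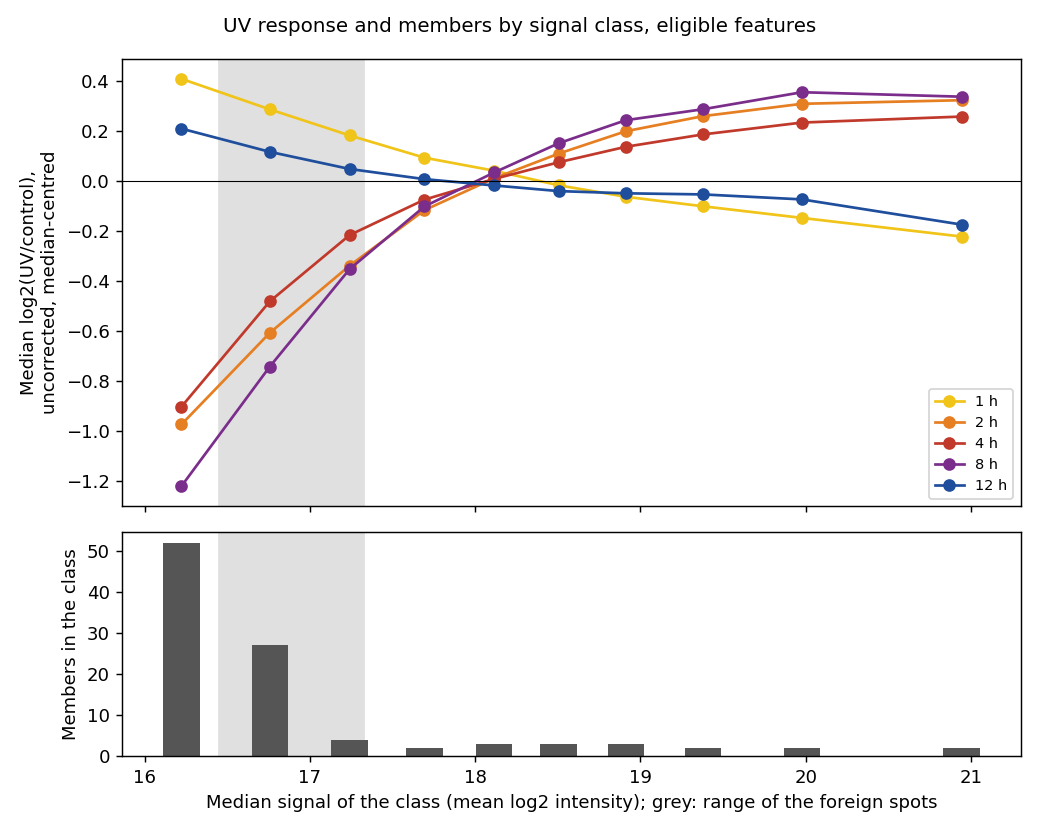
Upper panel: median log2(UV/control), uncorrected and median-centred, against the median signal of each of 10 signal classes of the 13339 features, 1 line per time; lower panel: number of members in each class; grey marks the signal range of the 7 foreign spots. The lines of 2, 4 and 8 h run from below 0 in dim classes to above 0 in bright ones, those of 1 h and 12 h run the other way, and the 2 dimmest classes hold 52 and 27 members.

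After background correction by normexp and loess, which removes a dependence of the ratio on signal within each slide, the dim and the bright features parted. The 83 dim features then had medians of 0.01, -0.16, -0.17, -0.29 and 0.68 at 1, 2, 4, 8 and 12 h. They stayed above 0 at 12 h in 83 of 83, while 43 lay above 0 at 1 h and 60 lay below 0 at 4 h, and the full pattern held in 50. The 17 bright features had medians of 0.47, -0.90, -0.47, -0.93 and 0.71, against 0.33, -0.60, -0.26, -0.63 and 0.63 before the correction. Each was thus farther from 0 afterwards. With loess on uncorrected values the medians of the 17 were 0.40, -0.81, -0.45, -0.84 and 0.61. With normexp and median centring, without loess, they were 0.43, -0.81, -0.40, -0.81 and 0.72. The part of each step in the shift was not tested. After normexp and loess together, the 17 lay above 0 at 1 h in 16 of 17, below 0 at 4 h in 17 of 17, and the full pattern held in 17. Over all 13339 features the full pattern held in 14.9% on these corrected values. Of the 13239 features not chosen, 48.0% lay above 0 at 12 h on them. The slides of 2, 8 and 12 h made the choice, so the counts at 12 h and of the full pattern are a description.

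The response also differed with dye and with place on the slide. The slides with UV on Cy5 had a median over the 83 of -0.19 at 1 h, and those with UV on Cy3 had 0.94. At 12 h it was the other way, 1.01 with UV on Cy5 and 0.11 with UV on Cy3. The single Cy5 slide of 2 h had -1.21 and the Cy3 slides -0.49. At 4 h and 8 h both dye orientations were well below 0. The 17 bright features differed between orientations too, on the same uncorrected values. With UV on Cy5 their median was 0.48 at 1 h, -0.67 at 4 h and 0.38 at 12 h, and with UV on Cy3 it was 0.09, 0.08 and 0.91, so that the sign at 4 h turned. On the slide, 41 of the 100 features lay in 3 neighbouring print blocks of the 48, in rows 1 to 3 of the 4th column of blocks, which held 6.95% of the features that could have been chosen and 5.76% of the dim ones. Only 1 of these 41 was brighter than the HPH spot. The 167 dim features of those blocks that were not chosen had a median of 0.30 at 12 h, against 0.13 for the 3346 dim features elsewhere. After loess, the 12 h slides a and b still had medians of 0.73 and 0.39 for those 167, against 0.02 and -0.02 for dim features elsewhere. With loess inside each print block, a setting chosen after seeing the data, the median of the 83 at 12 h was 0.43 and all 83 stayed above 0. The same 12 h slides made the choice, so nothing is read from that count. The part of dye, print position or unspecific signal in the response of the members was not tested.

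**Figure D3:**
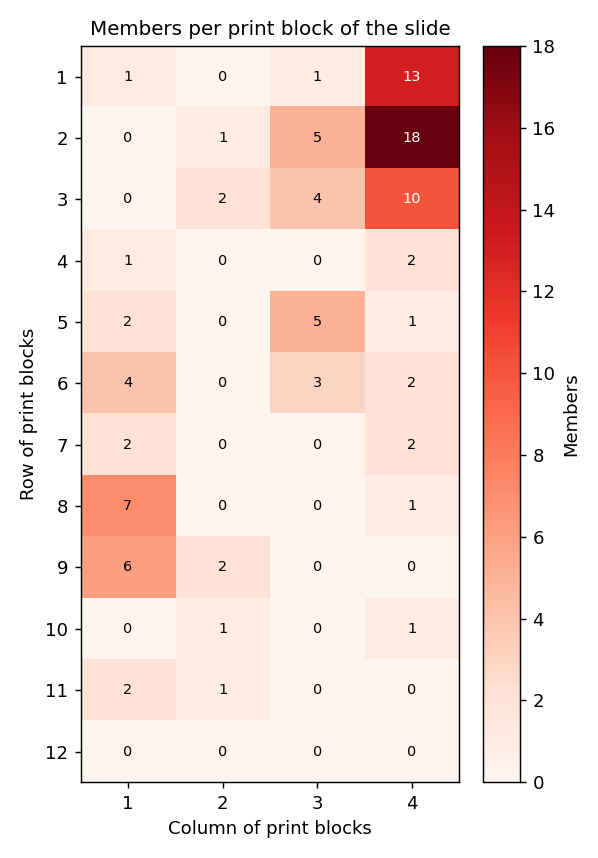
Number of members in each of the 48 print blocks of a slide, by row and column of blocks. The blocks in rows 1 to 3 of the 4th column hold 41 of the 100 members, and 21 blocks hold 0.

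The 17 bright features moved together, with 1 exception. For each of them, the correlation with the others over the 19 slides was computed on the corrected values. The median over the others was between 0.68 (AI947595) and 0.92 (AW129881) for 16 features, and 0.22 for AW400386. AW400386 also stood apart in its course, with -0.16 at 1 h and -0.09 at 8 h after loess. The 16 were AI947595, AI586582, BQ172530, AI649899, AI649921, AW787457, PB: Full, AI619386, AI622349, AW066980, AI947637, AW355922, AI621516, AW267421, AI622272 and AW129881, a set formed after the values were seen. Since the choice fixed the course over 2, 8 and 12 h, the slides of 1 h and 4 h are the ones it did not use. Over those 8 slides the median correlation between pairs of the 17 was 0.76, against 0.31 between the 83 dim features and 0.00 between the 9726 other bright features. When each time's mean was taken out, so that only the differences between slides of the same time were left, it was 0.66 for the 17, 0.29 for the 83 and 0.00 for the other bright features. All of these spots share the slides, and the correlations are a description. The other bright features were not chosen for a course and mix directions, so their value near 0 is no baseline for a chosen set. The 17 lay in 14 print blocks.

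**Figure D4:**
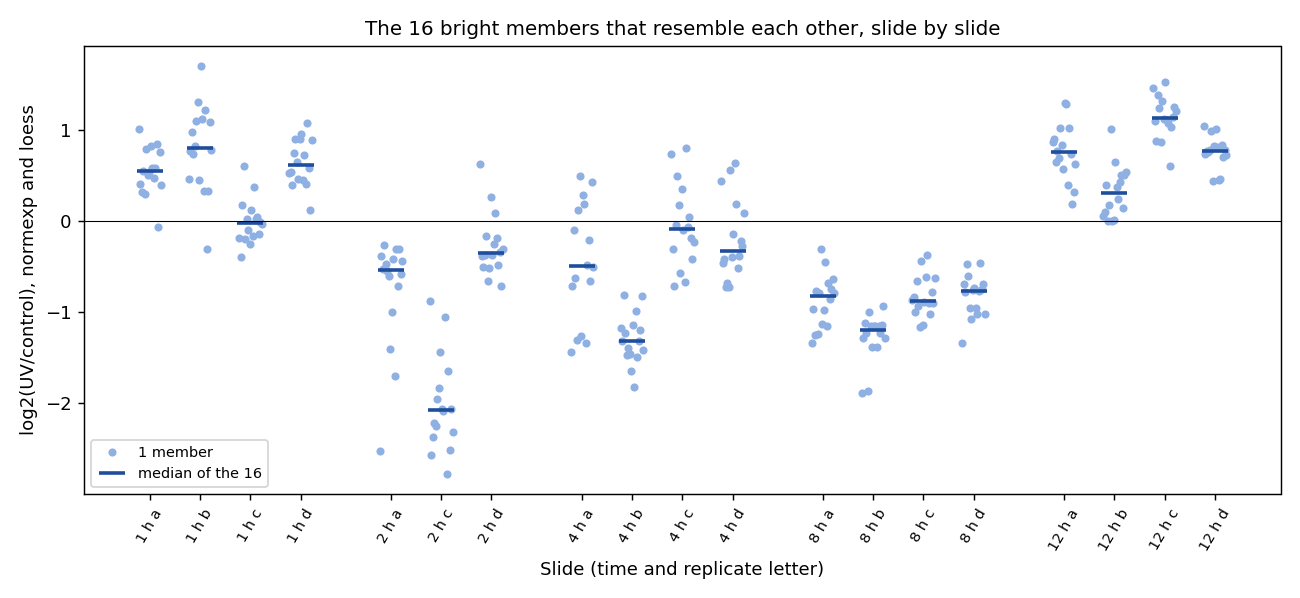
Log2(UV/control) after normexp and loess of the 16 like bright members on each of the 19 slides, 1 point per member and a bar at their median. All 16 are below 0 on every slide of 8 h, 16 of 16 are above 0 on slides a, c and d of 12 h, and the slides of 2 h and 4 h are far apart from each other. The slides of 2, 8 and 12 h served for the choice.

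Slide by slide, the 16 showed where the time means came from. Their medians at 1 h were 0.54, 0.80, -0.03 and 0.61 on slides a to d, at 2 h -0.54, -2.07 and -0.36 on slides a, c and d, and at 4 h -0.50, -1.32, -0.08 and -0.33 on slides a to d. At 8 h they were -0.82, -1.19, -0.88 and -0.76, and at 12 h 0.75, 0.31, 1.13 and 0.77. The slides of 8 h lay close together and the slides of 12 h were all above 0, while slide c at 1 h was near 0 and single slides stood low at 2 h (c) and 4 h (b). The slides of 2, 8 and 12 h made the choice, so nothing is read from shared signs there. Averaged over slides, the medians were 0.48 ± 0.36 at 1 h, -0.99 ± 0.94 at 2 h, -0.56 ± 0.54 at 4 h, -0.92 ± 0.19 at 8 h and 0.74 ± 0.34 at 12 h (SD, n = 4 slides, 3 at 2 h). Without slide c at 2 h, the median over the 16 of their 2 h values was -0.54, and without slide d it was -1.38, against -0.91 with all 3 slides. At 4 h it was -0.36 without slide b, where 4 of 16 lay above 0, and -0.74 without slide a, against -0.49 with all 4. Leaving out 1 slide of 1 h gave medians between 0.36 and 0.66.

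AW787457 was the brightest of the 16 and is given as an example. After loess it had 0.79, 1.10, 0.02 and 0.65 on the 1 h slides a to d, -0.55, -1.95 and -0.66 on the 2 h slides a, c and d, and 0.12, -1.40, 0.17 and -0.72 on the 4 h slides. It had -0.79, -1.003, -1.17 and -0.95 on the 8 h slides and 1.02, 1.01, 0.86 and 0.98 on the 12 h slides. The 12 h values lay close together, between 0.86 and 1.02, whereas the 4 h slides fell on both sides of 0. That closeness was not typical: on slide b of 12 h it was the highest of the 16, whose median there was 0.31. AI622349 had the highest value of the 16 at 1 h, with 0.82, 1.69, 0.12 and 0.95 on slides a to d. AI619386 had the lowest at 4 h, with -1.26, -1.65, 0.35 and -0.40.

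The tests asked whether single features differed between UV and control leaves at 1 h and at 4 h, the times the choice left out. The limma fit with normexp and loess ran over 20014 features, and p-values were adjusted over all of them with the Benjamini-Hochberg method at a threshold of 0.05. At 1 h it called 0 features (0%), of the 99 members tested 0, and 1566 features (7.82%) passed at an unadjusted p under 0.05, 9 members among them. The smallest adjusted p of a member was that of BQ294164, a dim feature with 1.05 ± 0.25 (SE, n = 4 slides, adjusted p = 0.415). It had 0.53, -0.07, 1.74 and 1.98 on slides a to d, so that the slides with UV on Cy3 gave the larger values. AI622349 had 0.89 ± 0.27 (adjusted p = 0.517), and its 4 slides were above 0. On the lower side, AW520047 had -0.79 ± 0.30 (adjusted p = 0.594) and AW308719 had -0.70 ± 0.37 (adjusted p = 0.678), both dim.

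At 4 h the fit called 0 features (0%) and 0 of 99 members, with 968 features (4.84%) and 10 members at an unadjusted p under 0.05. Of the 83 dim members 5 were among the 10 (6.02% of the 83), against 10.3% of other dim features. The members lowest by p were AW091067, with -0.98 ± 0.34 (adjusted p = 0.853), and AI619386, with -0.74 ± 0.26 (adjusted p = 0.865). On the higher side AW313398 had 0.27 ± 0.21 and BE186244 had 0.23 ± 0.19 (adjusted p = 1.00 for each). When the features were instead tested on the uncorrected, median-centred values that served for the choice, 801 of 20014 features were called at 4 h. Of the 99 members 10 were among them, all lower in UV leaves. Those are the values that move with signal, with a median of -0.90 at 4 h in the dimmest class. Nothing is read from the 10.

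The difference between the responses at 4 h and 1 h was tested in the same fit, which called 0 features (0%). An unadjusted p under 0.05 was found for 1287 features (6.43%) and 20 of 99 members, all 20 with the lower value at 4 h. The dim members gave 8 of these (9.64% of 83), against 9.67% of other dim features. The other 12 were like bright features. The 15 like bright features that were tested, without PB: Full, had differences between -1.32 and -0.74 and a median of -1.02. The other bright features had a median of 0.01. The like set was formed by correlation over all slides, those of 1 h and 4 h included, so its shared difference is a description. The smallest adjusted p among members was 0.677, for BQ294164 (-1.34 ± 0.36) and for AI649899 (-1.32 ± 0.37). AI649899 had -0.63, -1.23, -0.05 and -0.72 on the 4 h slides, against 0.55, 0.73, 0.60 and 0.74 on the 1 h slides, and the times did not overlap. On the uncorrected, median-centred values, 772 of 20014 features were called for this difference. Of the 99 members 12 were among them, all with the lower value at 4 h. On those values the dimmest signal class had medians of 0.41 at 1 h and -0.90 at 4 h, so nothing is read from the 12. The dim members had a median difference of -0.14 after loess, against -0.05 in other dim features. The highest differences were those of AI622741 (0.48 ± 0.33, adjusted p = 0.851) and AW520047 (0.61 ± 0.43, adjusted p = 0.855).

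At the times used for the choice, the same fit called 3 members lower at 2 h (1.42% of all features were), 8 lower at 8 h (2.49% of all) and 6 higher at 12 h (2.32% of all). These counts follow from the choice and nothing is read from them.

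Because each ratio holds a UV and a control sample, the levels show in which of them the signal stood high or low. Levels are log2 intensities after normexp, loess and Aquantile, a scaling of all slides to a common range, and cover the 15 tested like bright features as the median per slide. In UV leaves they averaged 18.84 ± 0.59, 18.48 ± 0.48, 18.84 ± 0.32, 18.17 ± 0.25 and 18.42 ± 0.45 at 1, 2, 4, 8 and 12 h (SD, n = 4 slides, 3 at 2 h). In control leaves they averaged 18.48 ± 0.62, 19.42 ± 0.61, 19.39 ± 0.60, 19.08 ± 0.22 and 17.65 ± 0.17. The means over the 5 times spanned 0.67 in UV leaves and 1.77 in control leaves. At 8 h the slides ran from 17.86 to 18.41 in UV leaves and from 18.76 to 19.24 in control leaves. At 12 h they ran from 17.97 to 18.999 in UV leaves and from 17.50 to 17.87 in control leaves. The groups did not overlap at either time, and the control leaves at 12 h were lower than every control slide of 2, 4 and 8 h. The levels of 2, 8 and 12 h entered the choice through the ratios. These separations are therefore a description, and nothing is read from them. In bulk leaf RNA, fewer cells of a type and less RNA per cell cannot be told apart.

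**Figure D5:**
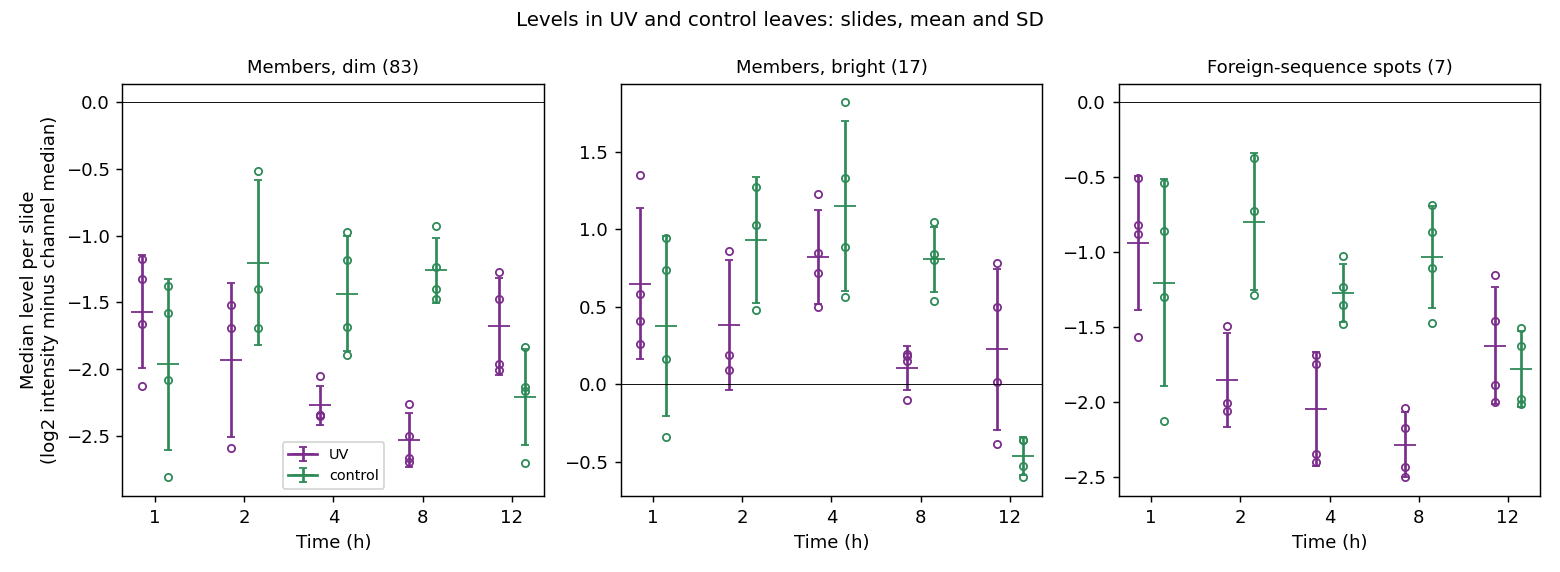
Median level per slide (log2 uncorrected intensity minus the channel median) of the dim members, the bright members and the foreign spots in UV leaves (left of each pair) and control leaves at 1, 2, 4, 8 and 12 h; circles are slides, bars mean and SD. At 8 h UV and control do not overlap in any panel, and the bright members have their lowest control level at 12 h. For the members, both times served for the choice.

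The dim features had their highest level in UV leaves and their lowest in control leaves at 12 h on the corrected scale. Over the 5 times they averaged between 15.15 and 15.84 in UV leaves and between 15.22 and 15.69 in control leaves. At 12 h they had 15.84 ± 0.30 in UV leaves and 15.22 ± 0.14 in control leaves (SD, n = 4), with slides from 15.67 to 16.29 in UV leaves and from 15.08 to 15.37 in control leaves, and the groups did not overlap. At 8 h they had 15.15 ± 0.24 in UV leaves and 15.41 ± 0.22 in control leaves, and the slides overlapped. Levels of both times entered the choice through the ratios, so the separation at 12 h is a description too.

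Control leaves and UV leaves were each compared between 4 h and 1 h, since neither time entered the choice, in the separate-channel fit of limma over the 14229 features measured on all slides. In control leaves 3 members were higher at 4 h (5.99% of all features were called higher) and 0 lower (7.41% of all). In UV leaves 1 member was higher (7.87% of all) and 1 lower (8.83% of all). The members were thus called no more often than features in general. AW399906, a dim feature, was higher at 4 h in both. In UV leaves it had levels of 16.81, 17.55, 17.37 and 17.48 at 4 h, against 15.21, 14.69, 14.83 and 15.19 at 1 h, a difference of 2.33 ± 0.48 (SE, adjusted p = 0.00895, limma). In control leaves it had 17.36, 17.62, 17.59 and 17.75 at 4 h, against 16.34, 15.22, 14.77 and 14.98 at 1 h, a difference of 2.25 ± 0.48 (adjusted p = 0.00952, limma). Neither pair of times overlapped.

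Of the like bright features, AW267421 passed in control leaves, with 18.23, 21.83, 20.57 and 21.75 at 4 h, against 18.57, 17.72, 18.45 and 17.33 at 1 h (2.58 ± 0.77, adjusted p = 0.0266, limma). Slide a of 4 h was as low as the 1 h slides. AI622331, a dim feature, had 17.33 ± 0.54 at 4 h and 15.43 ± 0.40 at 1 h in control leaves (SD, n = 4, adjusted p = 0.0128, limma). BQ172661, also dim, was lower at 4 h in UV leaves, with 14.16 ± 0.47 at 4 h and 15.36 ± 0.51 at 1 h (SD, n = 4, adjusted p = 0.0356, limma). The 15 like bright features, a set formed on slides that include both times, had a median difference of -0.36 in UV leaves and of 0.73 in control leaves. Of them, 14 passed in neither. The calls of AW267421 and BQ172661 were not stable: that of AW267421 was kept in 5 of 12 other settings (adjusted p up to 0.119, limma) and that of BQ172661 in 4 of 12 (adjusted p up to 0.191, limma). The counts of all features rest on single slides: without slide d of 4 h, the fit called 2 features of all in UV leaves and 341 in control leaves, against 2377 and 1907 with it. Without slide c of 4 h it called 6 and 313, and without slide b 519 and 353.

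Features with a gene name that followed a like course were sought by the same ranking among 845 named features measured on all slides. The 5 highest scores belonged to gst13, a glutathione S-transferase that joins glutathione to foreign or oxidised compounds (0.61), to ypt1, a small GTPase of vesicle traffic (0.58), to ANT-G1, an adenine nucleotide carrier of mitochondria (0.55), to HK1 (0.55), and to Sod4A, a superoxide dismutase that removes superoxide (0.55). Of these, gst13, ANT-G1, HK1 and Sod4A were as dim as the foreign spots, with signals from 16.27 to 16.70, and ypt1 was bright (AW231563, 20.95). After loess the 12 h values stayed above 0 in all 5, from 0.68 (gst13) to 1.20 (ypt1). The 2 h value after loess was 0.58 for gst13, 0.14 for ANT-G1 and 0.09 for HK1, so that these no longer held the pattern, whereas ypt1 had 0.57, -1.15, -0.23, -0.94 and 1.20 at 1, 2, 4, 8 and 12 h.

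The median course of the 16 like bright features over the 19 slides was also set against 14229 features after loess. A Pearson correlation above 0.9 was found for 94 features, 14 of them members, and below -0.9 for 0. Of the 94, 93 were brighter than the HPH spot, and they lay in 35 of the 48 print blocks. Of the 94, 56 shared the first 6 characters of their sequence record with another of them. The 5 commonest of these beginnings, picked from the 94 themselves, held 24 of them (25.5%) and 0.79% of all 14229 features. Such picking makes an excess by itself, so nothing is read from it. For the bright members without PB: Full, 0 of which shared a beginning, it gave 31.25% against 0.98%. For the dim members it gave 16.9% against 0.95%. What lies behind the shared beginnings was not tested. The nearest was AI600658 (0.99), with 0.50, -0.82, -0.67, -1.03 and 0.84 at the 5 times. The other 80 were not members, so the bright members are part of a larger set of bright features of like course. Named features among the 94 were ypt1 (0.95) and arpp2a, an acidic protein of the ribosomal stalk (0.95), with 0.65, -0.83, -0.45, -0.73 and 0.81 at the 5 times. Next came adh1, an alcohol dehydrogenase used when oxygen is short (0.89), aoc1, an enzyme of jasmonate synthesis (0.88), AN3, a coactivator of leaf growth (0.88), and hsp70-4, a chaperone (0.87). Their courses were shallower, with 12 h values of 0.43 (adh1), 0.61 (aoc1), 0.67 (AN3) and 0.37 (hsp70-4). These correlations include the times that chose the 16 and carry no test.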

How the data were processed

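The authors deposited 1 linear intensity per spot and dye for each sample, and per the labels the scans were gridded with TIGR Spotfinder. Whether background was subtracted is not stated in these sources. The series matrix holds a processed score of the authors, with column medians of 12.24 to 12.35. Its scale, centring and background treatment are unknown, and it served as an alternative. Per channel, 18795 to 20158 spots were read, the median intensities ran from 138059 to 626914, and the number of slides limits the precision.

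The features and lists were chosen with earlier results of these data known. For tests, intensities were corrected with normexp (offset 50) and loess (span 0.3) in limma 3.58.1 (R 4.3.3), leaving out 120 specially named spots. The ratio fit had 5 time means and a dye term, with 13 residual and 2.75 prior degrees of freedom, so each SE pools the spread of all times. Features needed values on 2 or more slides at each time. Levels used the separate-channel fit after Aquantile, with an intraspot correlation of 0.790. UV and control of a slide deviated together from their group means (r between 0.658 and 0.922). They share spots, so both fits pair them by slide.

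Named features were the 10 highest scores, the values at the limit, members passing each test or smallest by p, members extreme at 1 h, 4 h or in signal, and the 5 most alike named features. Names came from the platform's gene table and, for symbols made from a locus number, from RefSeq synonyms. Both limma fits were tested on simulated data with independent normal noise. The choice, the normalization and the correlations were not. For the UV response at 4 h, 73 of 100 features changed by 1 log2 unit were called, and 97 of 100 changed by 2. There were 15 false calls among 20134 features. For control leaves at 4 h against 1 h, 195 of 200 features changed by 3 log2 units were called, with 8 false calls.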

Additional observations from a re-analysis of the deposited data

Results flagged for a closer look

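Among the 30 named members, 120 groups of 4 slides were checked for a single slide far from the other 3, and 7 were found. By chance about 1 in 20 such groups would be. All values are log2(UV/control) after normexp and loess. At 1 h, slide c of BQ034402 had 1.23 and the others lay between -0.17 and 0.07. At 8 h, slide b of AW256126 had -1.77 (others between -0.27 and -0.01), and slide b of AW267421 had -1.14 (others between -0.78 and -0.75). At 12 h, slide b of AI600881 had 2.63 (others between 0.37 and 0.56), slide c of AW256126 had 0.96 (others between 0.19 and 0.26), slide a of AI622741 had 1.66 (others between 0.25 and 0.42), and slide a of BQ034402 had 1.42 (others between 0.25 and 0.39). Only AW267421 was brighter than the foreign spots.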

How the results depend on the processing

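Which features are chosen depended on the normalization. Of the 100, 25 were chosen again after normexp and loess, 25 with loess inside print blocks, 19 with loess on uncorrected values, 17 with the series matrix and 17 when only features brighter than the HPH spot could be chosen. The plain mean over slides kept 88, and centring on the eligible features kept 99. Without 1 slide, between 59 and 97 were kept. On the slide left out, the features so chosen had medians of -0.86, -0.97 and -0.05 at 2 h (a, c and d), -1.61, -1.21, -1.05 and -0.66 at 8 h (a to d), and 0.49, 0.79, 0.12 and -0.11 at 12 h (a to d). The sign thus turned on slide d of 12 h alone. On the same slides, all eligible features no brighter than the HPH spot had -0.76, -1.01 and -0.30 at 2 h. They had -1.12, -0.71, -0.87 and -0.65 at 8 h, and 0.24, 0.63, -0.09 and -0.24 at 12 h. Dim spots in general thus moved with the slides left out, and nothing is read from the signs there.

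The median at 4 h over the 100 was -0.23 after normexp and loess, -0.23 with loess inside print blocks, -0.16 with loess on uncorrected values and -0.12 in the series matrix. Leaving out 1 slide gave -0.94 to -0.52. The median at 1 h stayed above 0 in every setting run, between 0.03 and 0.57, and between 0.13 and 0.57 without 1 slide.

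Tested on uncorrected, median-centred values, 1 of 20014 features was called at 1 h, 801 at 4 h and 772 for the difference of 4 h and 1 h. Of the 99 members, 10 were called lower at 4 h and 12 lower for the difference. In that setting AW313398 had -0.39 and BE186244 -0.27 at 4 h, and the difference was -0.79 for AI622741 and -0.38 for AW520047, all reversed. At 1 h, leaving out 1 slide gave 0 to 3 features. Without a replicate block, so that the pairing by slide was ignored, the fits called 0 features at 1 h, at 4 h and for their difference, 1527 in control leaves and 2138 in UV leaves. Leaving out 1 slide gave 313 to 3728 features in control leaves and 2 to 4193 in UV leaves, and AW399906 passed in control leaves in each of 12 settings. In UV leaves it passed in 10 of 12. AI622331 passed in 10 of 12 and AW267421 in 5 of 12 in control leaves, and BQ172661 passed in 4 of 12 in UV leaves, with estimates between -1.44 and -0.26. The highest counts, 3728 and 4193, came without slide a of 4 h. Of alternatives listed, loess inside print blocks, normexp with median centring, loess on uncorrected values for the choice and centring on the eligible features were added after seeing the data. Dim spots limit what can be said of 83 members.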
